A study of Mus musculus with 4 samples.

Results

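The genes described here build the cornified envelope and the outer barrier of the epidermis. They were all genes whose symbol starts with Lce (late cornified envelope) or Sprr (small proline-rich protein), together with Lor, Flg, Flg2, Ivl, Rptn, Hrnr, Cdsn, Tgm1, Tgm3, Tgm5, Casp14, Alox12b, Aloxe3, Sbsn, Abca12 and Asprv1. This choice names 54 genes of the RefSeq annotation, of which 38 were found on the array by accession, among 16862 named genes in all. The 38 comprised 14 of 21 Lce genes, 11 of 17 Sprr genes, all 4 of Lor, Ivl, Cdsn and Sbsn, 2 of 4 genes of the S100 fused type (Flg2 and Rptn), all 3 transglutaminases, both of Casp14 and Asprv1, and 2 of 3 lipid genes (Alox12b and Aloxe3). Flg, Hrnr, Abca12, 7 Lce genes and 6 Sprr genes or pseudogenes had no matched probe and were not analysed here.

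Mouse skin was studied 48 h after a photodynamic treatment, in which methyl aminolevulinate cream (Metvix) is taken up, converted by cells into a light-absorbing porphyrin, and excited with red light to release reactive oxygen species. The tail treated group received cream on the tail, 2.5 h of darkness and 10 J/cm2 of 636 nm light. The back treated group was shaved, received the same cream and dark period, and was given 2.5 J/cm2. Tail control and back control skin had no treatment by the labels, which do not say whether the back controls were shaved. The design names 3 animals per group, and each group was represented by 1 one-colour Agilent array, all 4 on the same slide. It is not stated whether the 3 animals were pooled, and no strain, age or genotype is given in the labels. With 1 array per group there was no replicate, no difference below was tested, and the position on the slide cannot be told apart from the group. The sampled layer of the tail is uncertain, as it is skin in the labels and epidermis in the extraction protocol. The light dose differed between the sites, so site and dose cannot be told apart in any contrast of the responses.

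As keratinocytes leave the basal layer and move outward, they replace their plasma membrane with a shell of cross-linked proteins. Involucrin and the envelope scaffold are laid down first, loricrin, small proline-rich and late cornified envelope proteins are then joined to it by transglutaminases, and ceramides released with the help of the epidermal lipoxygenases are attached to its outer face. Filaggrin-type proteins bundle keratin and are later broken down by Casp14 and Asprv1 and other proteases into small molecules that hold water. Most of the structural genes lie side by side in 1 cluster, the epidermal differentiation complex, and 29 of the 38 genes belong to it on chromosome 3. In the RefSeq order the genes chosen here run from Lor through the Sprr2 genes, Sprr1b, Sprr3, Sprr1a, Sprr4 and Ivl to the Lce genes. The last of the chosen genes there are Flg2, Flg, Hrnr and Rptn, and other genes of the cluster were not placed in this order.

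The Sprr2 genes are shown by their promoters because near copies of one another differed in signal (given below), and Ivl because it was 1 of 4 genes measured without a limit on every array. Promoters come from RefSeq (GRCm38.p6) and cover the 250 bases before the annotated start, 5′ to 3′ on the strand of the gene. Capitals mark TGANTCA (the core of AP-1 sites), ATTTGCAT (the octamer bound by POU factors) and TATAAA.
Sprr2e (chr3:92351893-92352142, plus strand): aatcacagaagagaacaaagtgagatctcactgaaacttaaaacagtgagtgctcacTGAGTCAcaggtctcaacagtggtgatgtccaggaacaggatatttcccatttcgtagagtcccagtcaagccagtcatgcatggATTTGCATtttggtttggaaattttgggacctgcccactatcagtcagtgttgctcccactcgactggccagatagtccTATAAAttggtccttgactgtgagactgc
Sprr2f (chr3:92364937-92365186, plus strand): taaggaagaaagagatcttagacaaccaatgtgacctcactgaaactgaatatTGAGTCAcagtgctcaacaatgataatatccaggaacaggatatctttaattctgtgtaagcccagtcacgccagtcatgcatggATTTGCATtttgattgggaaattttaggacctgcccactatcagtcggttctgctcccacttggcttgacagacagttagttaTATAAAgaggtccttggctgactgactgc
Sprr2k (chr3:92432332-92432581, plus strand): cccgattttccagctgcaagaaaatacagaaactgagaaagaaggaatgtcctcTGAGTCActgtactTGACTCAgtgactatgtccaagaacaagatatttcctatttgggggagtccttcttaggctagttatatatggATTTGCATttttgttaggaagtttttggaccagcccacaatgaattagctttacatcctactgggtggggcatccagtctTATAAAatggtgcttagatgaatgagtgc
Ivl (chr3:92573736-92573985, minus strand): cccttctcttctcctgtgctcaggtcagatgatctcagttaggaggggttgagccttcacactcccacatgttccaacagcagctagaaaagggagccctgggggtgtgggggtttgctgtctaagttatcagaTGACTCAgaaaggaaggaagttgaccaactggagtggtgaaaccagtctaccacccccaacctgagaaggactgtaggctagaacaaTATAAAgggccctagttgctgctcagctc
In all 4 sequences TATAAA began 29 bases before the start. The octamer began 108 bases before the start in Sprr2e, 112 in Sprr2f and 109 in Sprr2k, and was not in the Ivl window. TGANTCA began 193 bases before the start in Sprr2e, 197 in Sprr2f, 116 in Ivl, and 196 and 182 in Sprr2k, which held it at 2 places. Sprr2e and Sprr2f were identical at 85.2% of 230 aligned bases, and Sprr2e and Sprr2k at 73.8% of 237.

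Of the 38 genes, 36 had a promoter in the RefSeq table, and each motif was searched on both strands. TGANTCA was present in 13 of 36 (36.1%), against 7.82% of 27025 genes of the table. It was in 8 of 11 Sprr promoters and in 0 of 13 Lce promoters. ATTTGCAT was in 6 of 36 (16.7%), all of them Sprr2 genes, against 1.81% of all genes. TATAAA was in 15 of 36 (41.7%), against 14.3%, with 9 of 11 Sprr and 2 of 13 Lce promoters. TGACNNNGC, the core of the antioxidant response element, was in 5 of 36 (13.9%), close to the 11.5% of all genes. These matches describe letters in a window and no binding.

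Many envelope transcripts exceeded the range of the scanner, a majority of the 38 genes on each control array and a minority on each treated array. Untreated tail skin had 31 of the 38 genes saturated (81.6%), against 9.89% of all named genes. Treated tail skin had 17 saturated (44.7%, against 1.96%), untreated back skin 26 (68.4%, against 3.95%) and treated back skin 14 (36.8%, against 1.98%). Asprv1, Cdsn, Lor, Sbsn, Sprr1a, Sprr2a1, Sprr2d, Lce1a1, Lce1b, Lce1c, Lce1d and Lce1f were saturated on all 4 arrays, 12 genes whose brightest probes gave no direction in any comparison. Ivl, Lce1l, Sprr3, Sprr4 and Tgm5 were saturated on none. Well above background were 37 genes on each of 3 arrays and all 38 on the back treated array. Sprr3, an envelope precursor of internal squamous epithelia, was the exception.

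**Figure D1:**
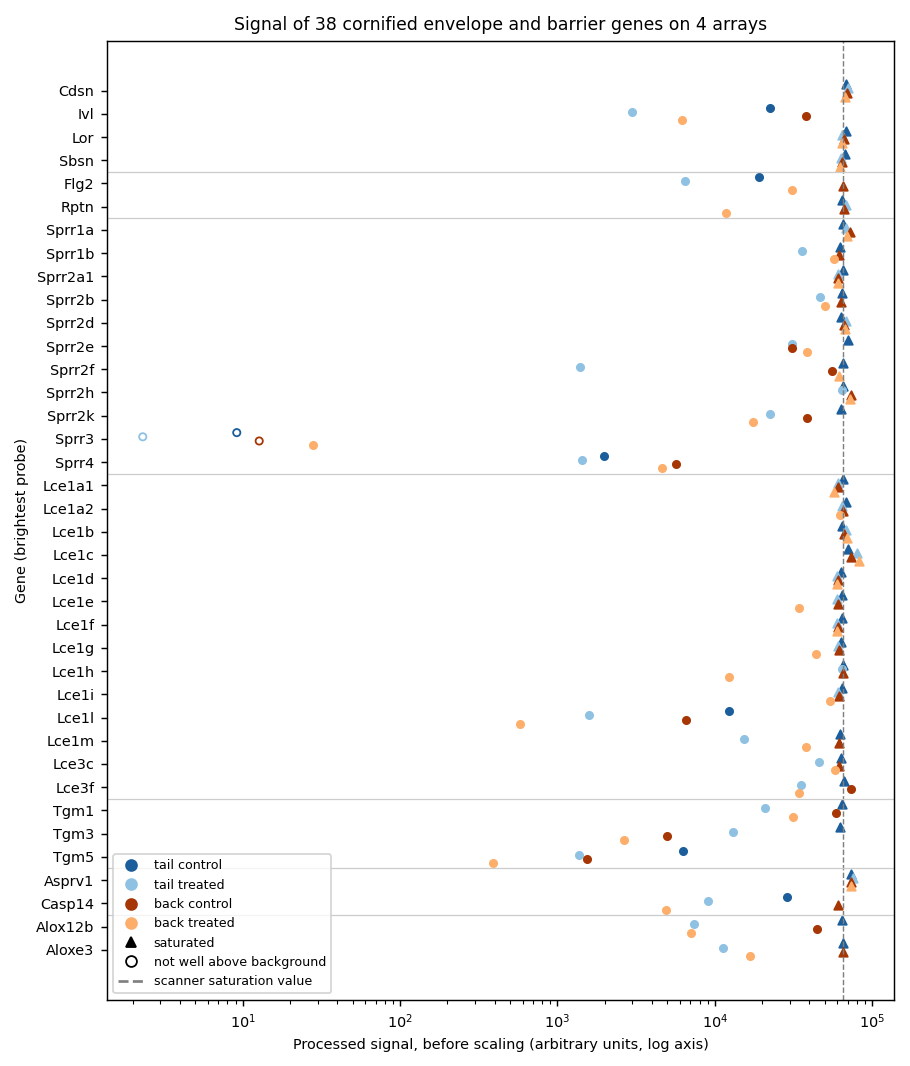
Processed signal of the brightest probe of each of the 38 genes (rows, grouped by family) on a log axis in arbitrary units before any scaling, with 1 point per array and so no error bar. Triangles mark saturated spots, open circles spots not well above background, and the dashed line the saturation value of 65525. Most Lce and Sprr genes pile up at the dashed line on the tail control and back control arrays, while Ivl, Lce1l, Sprr4 and Tgm5 stay below it on all 4 arrays.

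All levels below are log2 of the signal minus the log2 of that array's 75th percentile, called scaled levels. Where 4 values are given in a row, they are for untreated tail, treated tail, untreated back and treated back. That percentile was 7261, 909, 1860 and 1204, so that the same scanner limit lies at a scaled level of 3.17, 6.17, 5.14 and 5.77. A gene saturated on both arrays of a pair therefore acquires a difference from the scaling alone. The 17 genes saturated on both tail arrays had unfiltered scaled differences between 2.89 and 3.18, around a scaling offset of 3.00. Between the 2 back arrays the 13 such genes lay between 0.53 and 0.79, around an offset of 0.63. Without the filter on saturation, 29 of the 38 genes would have counted as at least 2-fold higher in treated tail skin. Such genes are given no value here. Where only 1 array was saturated or not well above background, the difference is a bound, written "at least".

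**Figure D2:**
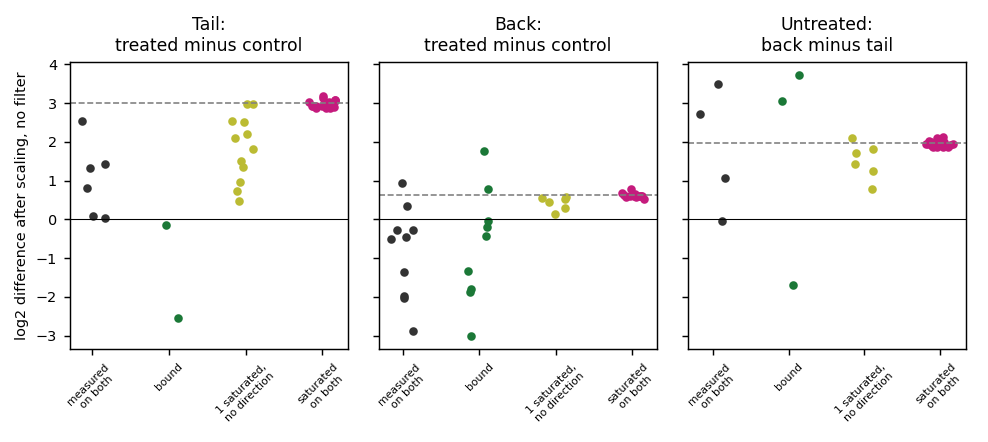
Scaled log2 difference with no filter (vertical axis) for each of the 38 genes in 3 comparisons, split by whether the gene was measured on both arrays, bounded, saturated on 1 array with no usable direction, or saturated on both. The dashed line is the offset that scaling alone gives (3.00, 0.63 and 1.97 from left to right), and the genes saturated on both arrays lie on it; there are no replicates and no error bars.

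In tail skin, 3 envelope and barrier genes were at least 2-fold higher after treatment (Sprr4, Flg2 and Casp14) and 1 was lower (Sprr2f). A value could be given for 8 of 38 genes, of which 6 were measured on both arrays and 2 bounded, while 17 were saturated on both arrays, 12 had no usable direction and Sprr3 was dim on both. Over all genes with a value, 27.2% were at least 2-fold higher and 6.55% at least 2-fold lower. The median over the 8 genes was 0.45, against 0.33 over all genes. Among genes measured on both arrays, 3 of 6 envelope genes were higher and 0 lower, against 26.9% and 6.26% of all genes. Among genes saturated on the tail control array, which could enter only as lower, 1 of 31 was lower, against 1.56% of all such genes. The directions in the tail rested on the scaling. With the 6 spike-in probes, which are RNAs added in fixed amounts, as the reference instead of the 75th percentile, each tail difference shifts by -2.06. None of the 38 was then higher by 2-fold and 8 were lower, with Sprr4 at 0.47 and Flg2 and Casp14 turned to -0.63 and -0.72. Over all genes with a value under that scaling, 137 of 14479 were higher and 10310 lower. Sprr2f stayed lower.

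In back skin, 8 genes were at least 2-fold lower after treatment (Casp14, Lce1l, Alox12b, Ivl, Rptn, Lce1h, Tgm5 and Aloxe3) and 1 was higher (Sprr3). A value could be given for 19 of 38 genes, 10 measured and 9 bounded, with 13 saturated on both arrays and 6 without usable direction. Over all genes with a value, 12.6% were lower and 13.6% higher. The median over the 19 genes was -0.46, against -0.01 over all genes. A gene saturated on the control array alone could enter only as lower, so the counts were also read within each kind. Among genes measured on both arrays, 4 of 10 envelope genes were lower and 0 higher, against 11.9% and 13.6% of all genes. Among genes saturated on the back control array, 4 of 26 were lower, against 8.41% of all such genes. With spike-in scaling each back difference shifts by -0.48, 8 genes were still lower and none was higher. Over all genes with a value, 3528 of 13776 were then lower and 870 higher. In bulk skin, fewer cells of a type and less RNA per cell cannot be told apart.

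**Figure D3:**
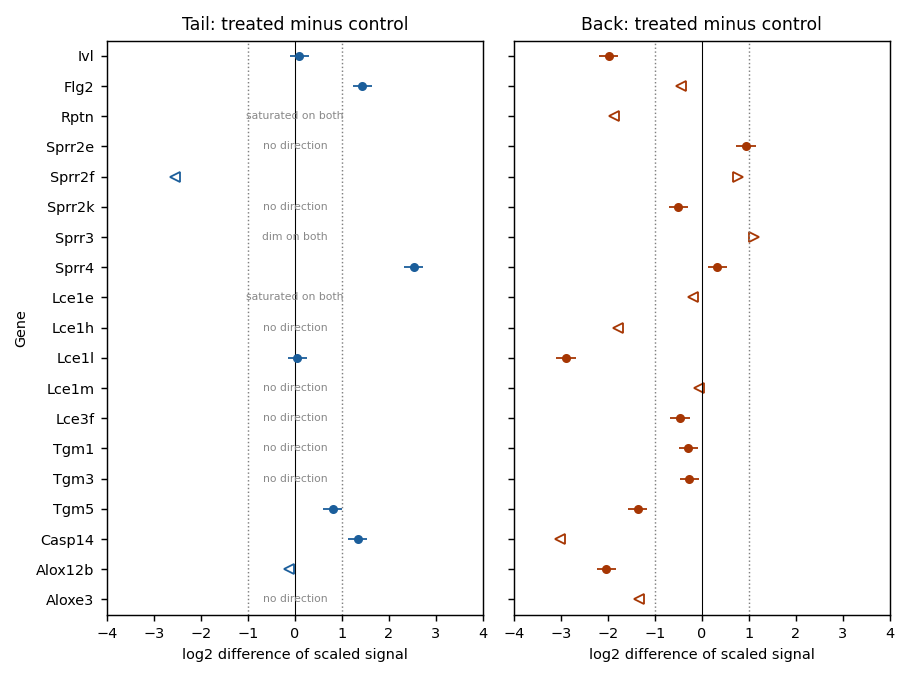
Scaled log2 difference, treated minus control (horizontal axis), for the 19 genes with a value in tail or back skin. Filled circles are measured on both arrays with the scanner's spot error of about 0.20 as bar, open triangles are bounds pointing away from 0, dotted lines mark 2-fold, and grey words say why no value is given. In the tail Sprr4, Flg2 and Casp14 lie right of the 2-fold line and Sprr2f left of it, and in the back 8 genes lie left of it.

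Involucrin (Ivl), an early scaffold protein of the envelope, was measured without saturation on every array. Its scaled level was 1.62 in tail control, 1.71 in tail treated, 4.35 in back control and 2.37 in back treated skin. The back control array stood above the other 3, and the treated back came nearer to the tail than to the untreated back. The difference after treatment was 0.09 in the tail and -1.98 in the back, a 3.94-fold lower level, each with a scanner spot error of 0.20. The processed signal before scaling was 22361, 2976, 37858 and 6220 in the same order, so that Ivl was dimmer on both treated arrays, and the near-zero tail difference depended on the scaling (-1.97 with spike-ins). Lor, the main bulk protein of the envelope, Cdsn, a corneodesmosome adhesion protein, and Sbsn, a secreted suprabasal protein, were saturated throughout by brightest probe. The other Sbsn probe was below the limit only in back treated skin, at 5.48, a bound of -0.56 against tail treated skin.

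Flg2, a filaggrin-like protein of the granular layer, had scaled levels of 1.40 in tail control, 2.83 in tail treated and 4.69 in back treated skin, and was saturated at 5.13 in back control skin. It was 2.70-fold higher in treated than in control tail, a difference of 1.43 that was 0.49 under cyclic loess and also short of 2-fold under normexp. In the back its difference was a bound of -0.43. Rptn, another S100 fused type protein that is cross-linked into the envelope, was saturated on 3 arrays and read 3.28 on the back treated array, at least 3.66-fold lower than in the back control. Both tail arrays were at the scanner limit for Rptn, so the tail gave no value.

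Sprr proteins are short cross-bridging proteins of the envelope, many of which are induced in stressed or wounded epidermis. Sprr4 had scaled levels of -1.88 in tail control, 0.65 in tail treated, 1.62 in back control and 1.95 in back treated skin, 5.76-fold higher in treated than in control tail and higher by 0.33 on the log2 scale in the back. Tail control was the low array, with the other 3 within 1.30 of each other. Across the alternative processings other than spike-in scaling its tail difference ranged from 2.23 to 2.53.

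Sprr2f was the 1 Sprr2 gene with a value in the tail. It was saturated on the tail control array, read 0.62 on the tail treated array (a processed signal of 1397), 4.90 in back control and was saturated in back treated skin. It was therefore at least 5.86-fold lower in treated tail skin, the same in direction under every alternative that gave a value (-4.05 to -2.48, and -4.61 with spike-ins), whereas in the back it was at least 0.77 higher on the log2 scale, short of 2-fold. Sprr2e, whose promoter is printed beside it above, read 5.10 in tail treated and 4.06 in back control skin, and was saturated in tail control. In back treated skin it lay 0.94 above the back control, also short of 2-fold. Sprr2k, saturated in tail control, read 4.63, 4.37 and 3.87 on the other arrays, with a back difference of -0.50. In the tail these neighbours had no direction, and with spike-ins they were bounded at -0.24 and -0.55.

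By brightest probe, Sprr2a1, Sprr2d and Sprr1a were saturated on all arrays, Sprr2h on 3, and Sprr1b and Sprr2b on both control arrays only. The other Sprr2a1 probe was saturated in tail control only. Its difference was 0.49 between treated and control back, and -0.60 between treated back and treated tail. Sprr3 was well above background only in back treated skin, where its processed signal was 27.8 against 12.7 in back control, at least 2.16-fold higher. This call was short of 2-fold under normexp (0.70), cyclic loess, median pixel minus local background and spike-in scaling (0.63). Probe sequences were not used here, so a probe of 1 Sprr2 or Lce gene may also bind RNA of a near-identical copy.

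Lce proteins are added late, at the outer edge of the granular layer. Lce1l was the 1 member of the family measured on all 4 arrays, with scaled levels of 0.75 in tail control, 0.80 in tail treated, 1.83 in back control and -1.06 in back treated skin. The back treated array was the low one. The Lce1l difference was 0.05 in the tail (-2.01 with spike-ins) and -2.89 in the back, a 7.40-fold lower level. Lce1h was saturated in both controls and read 6.15 in tail treated and 3.35 in back treated skin, at least 3.46-fold lower in the treated back. Lce1e, Lce1g, Lce1i and Lce1a2 were saturated on 3 arrays and below the limit only in the treated back, at 4.84, 5.18, 5.48 and 5.71, which gave Lce1e a bound of -0.19 and the others no direction.

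Lce1g had another, dimmer probe that never saturated. It read -0.67, 0.48, -0.09 and -3.10, with differences of 1.15 in the tail and -3.01 in the back. The 2 probes of Lce1g therefore differ in what they could show, and the gene was not counted as lower. Lce3f, of the group linked to repair after injury, was saturated in tail control, and its scaled level was 5.28 in tail treated, 5.30 in back control and 4.84 in back treated skin, a back difference of -0.46. Lce1m and Lce3c were saturated in both controls and below the limit in both treated samples. In all, 2 of 5 Lce genes with a value were lower in the treated back and none was higher. In the tail the single Lce gene with a value, Lce1l, lay within 2-fold by 75th-percentile scaling. With spike-ins Lce1l was at -2.01 there and Lce1m at a bound of -1.09.

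Transglutaminases join the envelope proteins to one another. Tgm5 was measured on all 4 arrays, at -0.22 in tail control, 0.59 in tail treated, -0.27 in back control and -1.63 in back treated skin. The difference was 0.81 in the tail (short of 2-fold), and the level was 2.57-fold lower in the back. With spike-in scaling Tgm5 was lower at both sites, at -1.25 in the tail and -1.84 in the back. Tgm1, the membrane-anchored enzyme central to envelope assembly, was saturated in tail control and read 4.52, 4.98 and 4.70 on the other arrays, a back difference of -0.28. Tgm3, which also acts in the hair follicle, was saturated in tail control and read 3.84 in tail treated, 1.41 in back control and 1.14 in back treated skin. Its back difference after treatment was -0.27. Its tail difference had no direction, and with spike-ins it was at least 2.50-fold lower in the treated tail.

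Casp14, the caspase of cornifying keratinocytes that helps degrade filaggrin, had scaled levels of 1.99 in tail control, 3.33 in tail treated and 2.03 in back treated skin, and was saturated at 5.03 in back control skin. Its level was 2.53-fold higher in treated than control tail and at least 8.05-fold lower in treated than control back. The tail difference of 1.34 was 0.52 under cyclic loess, also short of 2-fold under normexp, and -0.72 with spike-ins, while the back bound stayed between -3.07 and -2.56 under the alternatives and was -3.49 with spike-ins. Asprv1, the retroviral-like protease that cuts profilaggrin, was saturated on all 4 arrays.

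Alox12b and Aloxe3 act in sequence on the linoleate of ceramides before these are bound to the envelope. Alox12b was saturated in tail control and read 3.02 in tail treated, 4.58 in back control and 2.55 in back treated skin, 4.08-fold lower in the treated back. Its other probe, unsaturated everywhere, read 1.00, 0.66, 2.26 and 0.33, with differences of -0.33 in the tail and -1.92 in the back, so both probes were lower in the back. Aloxe3 was saturated in both controls and read 3.64 in tail treated and 3.80 in back treated skin, at least 2.51-fold lower in the treated back. By brightest probe, Alox12b had a bound of -0.13 in the tail and Aloxe3 had no direction there. With spike-ins both were lower in the treated tail, at bounds of -2.19 and -1.60.

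The contrast between back and tail response could be formed only for genes measured on all 4 arrays. For the brightest probes of Lce1l, Sprr4, Tgm5 and Ivl, the back difference minus the tail difference was -2.93, -2.20, -2.17 and -2.07, each with a spot error of 0.29. With 75th-percentile scaling all 4 were at least 2-fold lower in the back relative to the tail, where over the 11281 genes measured on all arrays the median was -0.20 and 28.6% were lower by 2-fold or more. With spike-in scaling the values were -1.35, -0.61, -0.59 and -0.48 in the same order, so that only Lce1l stayed past 2-fold. Over all genes the median was then 1.38, and 4.83% were lower by 2-fold or more.

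Untreated skin of the sites was compared because the responses start from it. At least 2-fold higher in back than in tail control skin were 5 genes, Flg2, Sprr4, Casp14, Ivl and Lce1l, and 1 was lower, Tgm3, among 7 genes with a value. Over all genes 27.4% were higher and 17.2% lower. The 31 genes saturated on the tail control array could enter only as lower, and 1 of them did. A gene could be called higher only if it was unsaturated in the tail control. Among genes measured on both arrays, 3 of 4 envelope genes were higher and 0 lower, against 3329 and 1970 of 12092 over all genes. Flg2 was at least 13.3-fold higher, Casp14 at least 8.25-fold, Sprr4 11.2-fold, Ivl 6.61-fold and Lce1l 2.11-fold, and Tgm5 was at -0.05. The median over the 7 genes was 2.72, against 0.19 over all genes, and the limit on saturated genes favours a high median. Both arrays were saturated for 24 genes. With spike-in scaling Lce1l was at 0.27 and the other calls stayed, and Lce1l was also short of 2-fold under quantile normalization (0.91) and cyclic loess. This contrast shares the back control array with the back response, so a high reading there would enter both.

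Tgm3 was at least 3.22-fold lower in untreated back than in tail. The inner root sheath keratins moved with it. Krt25, Krt27 and Krt71 were saturated on both tail arrays and on neither back array, so no tail level is given for them. Krt26, the unsaturated member of the list, read 1.33 in untreated and 3.31 in treated tail, was not well above background in untreated back, and read -5.50 in treated back. The summed level of the 4 listed genes of that hair follicle layer, in multiples of the array's 75th percentile, was 0.967 in untreated and 0.492 in treated back. Their part in the Tgm3 result was not tested.

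**Figure D4:**
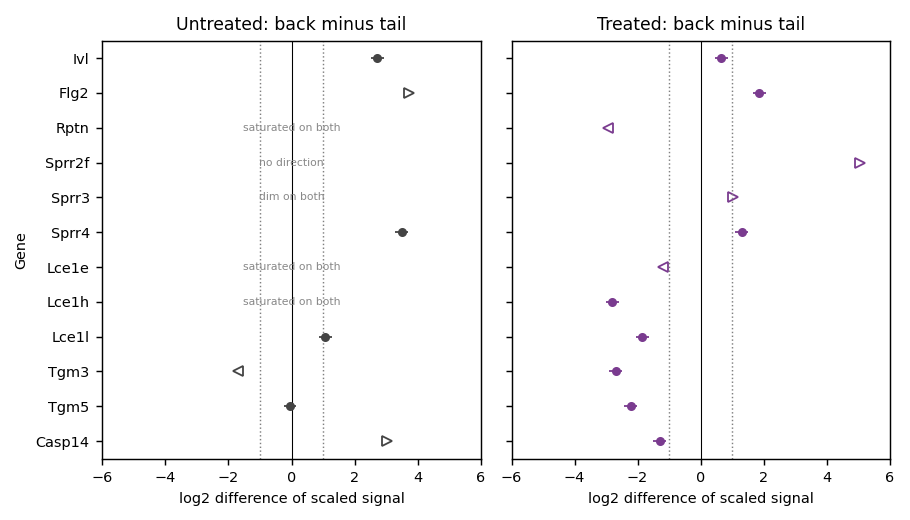
Scaled log2 difference, back minus tail (horizontal axis), in untreated and in treated skin, for the genes that differed by at least 2-fold in either pair. Filled circles are measured with the spot error of about 0.20 as bar, open triangles are bounds pointing away from 0, and dotted lines mark 2-fold. Casp14 and Lce1l lie to the right in untreated and to the left in treated skin, and Tgm3 lies to the left in both.

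In treated skin 25 genes had a value, and 4 were higher and 7 lower in back than in tail, against 15.9% and 20.5% of all genes. Among genes measured on both arrays, 2 of 18 envelope genes were higher and 5 lower, against 2020 and 2449 of 12662 over all genes. The 17 genes saturated on the tail treated array could enter only as lower, and 2 of them did. Sprr2f was at least 33.0-fold higher in the back, the widest gap of any envelope gene in that pair, and Flg2 (1.86), Sprr4 (1.30) and Sprr3 (a bound of 1.03) were also higher on the log2 scale. Rptn was at least 7.75-fold lower, and Lce1h (-2.80), Tgm3 (-2.69), Tgm5 (-2.22), Lce1l (-1.86), Casp14 (-1.30) and Lce1e (a bound of -1.20) were lower on the log2 scale. Under spike-in scaling Casp14 and Lce1e were short of 2-fold (-0.52 and -0.42), as Casp14 was under normexp (-0.71) and Lce1e under normexp and quantile normalization (-0.46). With spike-ins Lce1m (1.69), Ivl (1.44) and Sprr1b (1.03) were also at least 2-fold higher in the back. Over all genes with a value under spike-in scaling, 4826 of 13583 were higher and 1098 lower. The median over the 25 genes was -0.44, against -0.23 over all genes. Saturation was less common on the treated arrays, so this pair gave values for more of the family than the others.

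The wider differentiation programme was read from lists of companion genes. In the treated back the suprabasal keratin and desmosome list had 6 of 8 genes lower and none higher (median -1.22), led by Krt2, a keratin of the upper spinous and granular layers, which was 93.1-fold lower at -1.52 against 5.02. Dsg1b, a desmosomal cadherin, was lower by 1.89 on the log2 scale, and Krt78 at least 3.02-fold lower. Of genes that process or shed the envelope, 6 of 16 were lower and none higher (median -0.74), with Klk5 at least 6.78-fold lower and Prss8, a serine protease needed for profilaggrin processing, 4.13-fold lower. Of genes for barrier lipids, 10 of 22 were lower and none higher (median -0.85), with the epidermal lipases Lipk and Lipn at -3.20 and -2.81 and the ceramidase Acer1 at -1.65. In contrast, 6 of 7 genes of the basal layer were higher and 0 lower (median 1.87), with Itga3 at 2.69 and Itgb4 at a bound of 2.32. These lists stand beside a background of 12.6% lower and 13.6% higher over all genes. Here too a gene saturated on the back control array could enter only as lower. That held for 6 of 13 suprabasal, 10 of 22 processing, 4 of 23 lipid and 4 of 11 basal genes. Among the lower genes, Krt78, Klk5, Csta1, Furin and Smpd1 were such bounds.

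In the treated tail, where 27.2% of all genes were higher and 6.55% lower, the picture differed by list. Of the desquamation and processing genes, 6 of 12 were higher and 1 lower (median 1.13), with the protease inhibitor Spink12 at 4.64 and the kallikreins Klk6 and Klk10 at 4.41 and 2.66. Of the barrier lipid genes, 2 of 15 were higher and 0 lower (median 0.27), with Degs2, which makes phytoceramides, at 4.31. Suprabasal and desmosome genes gave a value in only 3 cases (1 higher, median 0.31), since 7 were saturated on both arrays. Basal layer genes lay on the opposite side from the back, with 5 of 6 lower and 0 higher (median -1.59). With spike-in scaling Spink12, Klk6 and Degs2 stayed higher, at 2.57, 2.35 and 2.24. Then 2 of 15 processing genes were higher and 7 lower, 1 of 20 barrier lipid genes was higher and 17 lower, and 6 of 7 basal layer genes were lower. Most genes on the array were lower under that scaling, 10310 of 14479 with a value, and 137 were higher.

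**Figure D5:**
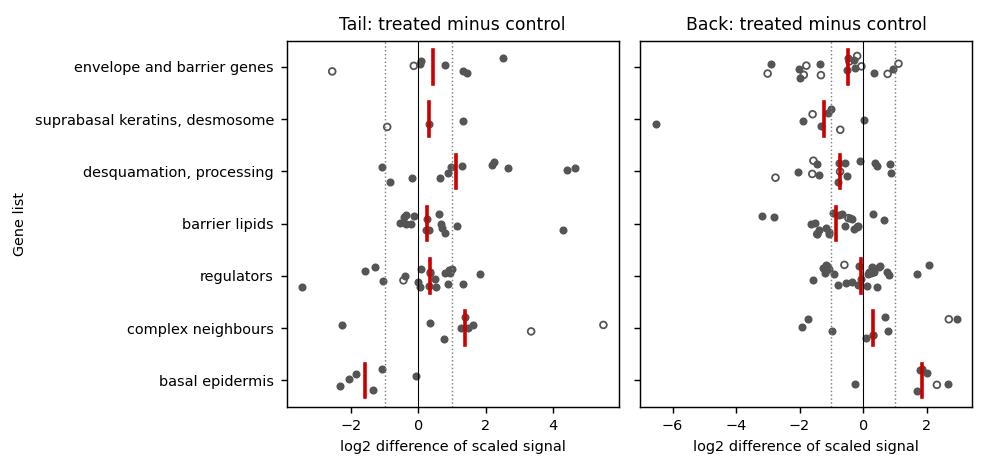
Scaled log2 difference, treated minus control (horizontal axis), for the envelope and barrier genes and 6 companion lists (rows), in tail and back skin. Filled points are measured genes, open points are bounds, red bars are medians over genes with a value, and dotted lines mark 2-fold, with no replicate error available. Suprabasal, processing and lipid genes lie mostly left of 0 in the back, where basal genes lie right, and basal genes lie left of 0 in the tail.

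Neighbours of the envelope genes in the same chromosomal cluster gave 6 higher and 1 lower of 9 in the treated tail (median 1.40) and 2 higher and 2 lower of 10 in the treated back (median 0.31), the latter near the 13.6% and 12.6% of all genes in the back. In the tail 27.2% and 6.55% of all genes were higher and lower. S100a8 and S100a9, calprotectin subunits made by stressed keratinocytes and by neutrophils, were at least 44.9-fold and at least 10.2-fold higher in the tail by the 75th percentile, and at least 10.8-fold and at least 2.44-fold higher by the spike-ins. S100a8 was at least 6.49-fold higher in the back. Of 5 neutrophil markers on the array, 0, 1, 1 and 3 were well above background, and their part in these values was not tested. Pglyrp3, an antibacterial protein of differentiated epithelium, was lower at both sites, at -2.25 in the tail and -1.72 in the back, although its tail value was -0.58 under normexp. S100a7a was higher at both, at 1.27 and 2.97, but its tail value turns negative with the spike-in shift.

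Regulators of keratinocyte differentiation gave 2 higher and 4 lower of 21 in the tail (median 0.34), against 27.2% and 6.55% of all genes, and 2 higher and 6 lower of 27 in the back (median -0.07), against 13.6% and 12.6%. Cyp1a1, a standard target of the aryl hydrocarbon receptor that promotes barrier gene expression, was higher at both sites, at 1.82 in the tail and 2.08 in the back, although the tail value was -0.24 with spike-ins. Keap1, the sensor that restrains the oxidative stress factor Nrf2, was at 1.70 in the back. Prdm1, a repressor acting late in keratinocyte differentiation, was at -1.57 in the back, and Elf3, an epithelial transcription factor able to activate Sprr promoters, at -3.46 in the tail (-1.63 under normexp) and 0.28 in the back.

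The tissue itself was checked by its markers. Krt5 and Krt14 of basal and Krt1 and Krt10 of suprabasal keratinocytes were saturated on all 4 arrays. By 75th-percentile scaling, the summed marker levels of the other cells listed here were higher in treated than in control tail. Between the back arrays they went both ways. The summed levels, in multiples of each array's 75th percentile, were 1.55, 3.32, 2.50 and 2.12 for 6 fibroblast genes and 0.710, 1.74, 1.25 and 1.15 for 6 skeletal muscle genes. They were 5.88, 27.04, 1.99 and 2.72 for 5 adipocyte genes, 8.18, 14.8, 0.591 and 1.07 for 3 melanocyte genes, and 0.805, 12.97, 1.84 and 3.31 for 3 red blood cell genes. Of the adipocyte genes, Lep was well above background on no array and Adipoq only in treated back, so the tail sums rest on the other 3. Pdgfra, a fibroblast gene, was not well above background in the tail, nor was Ckm, a muscle gene, in the back. The median log2 tail difference of a list, over its genes with a value only, is a measure unlike these sums. By 75th-percentile scaling it was 1.09 for fibroblast, 1.16 for muscle, 2.01 for adipocyte, 0.36 for melanocyte and 3.45 for red blood cell genes. With spike-in scaling these medians were -0.98, -0.90, -0.05, -1.70 and 1.39 in the same order.

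In the treated tail, at least 2-fold higher were 5 of 6 muscle genes, 3 of 3 red blood cell genes, and all 3 adipocyte and all 3 endothelial genes with a value, against 27.2% of all genes. With spike-in scaling 1 of 6 muscle, 2 of 3 red blood cell, 0 of 3 adipocyte and 1 of 4 endothelial genes were higher, against 137 of 14479 of all genes. In the treated back, where 13.6% of all genes were higher, 2 of 4 macrophage markers were higher, Cd163 at least 40.0-fold and Mrc1 10.2-fold. The macrophage markers Adgre1 and Csf1r were at 0.31 and -0.62 on the log2 scale. With spike-in scaling Cd163 and Mrc1 were at 4.84 (a bound) and 2.87, and Adgre1 and Csf1r at -0.17 and -1.10. The neutrophil markers Retnlg, Csf3r and Mmp8 were 44.2-fold, at least 24.2-fold and at least 23.9-fold higher there, and 3 of 4 endothelial genes with a value were higher. The part of these cells in the results of either site was not tested.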

How the data were processed

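RNA (200 ng, Cy3) from the 4 groups was hybridised to 1 one-colour array each, per the labels. The deposited values are background-subtracted spot intensities that Feature Extraction 10.5.1.1 wrote, per the file headers, without adjusting arrays to one another. The submitters' processing notes give 10.7 instead. Flags for saturation, background and outlier spots are deposited beside it, as other values, per the file headers. The authors' deposited table of log2 values, centred per probe, gave the same differences between arrays as these intensities, to within 0.001 after a constant, for 99.9% or more of probes. Its column medians were -0.28 and 0.10 for untreated and treated tail and -0.03 and 0.08 for untreated and treated back. How it was made is not given in the sources used here.

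Values were log2 of the processed signal (at least 1) minus the 75th percentile of the same array's gene probes, computed with pandas 2.3.3 and numpy 2.4.6, and drawn with matplotlib 3.10.9. Of 41174 probes, 24375 (59.2%) matched 1 gene by accession in the RefSeq table of assembly GRCm38.p6. The files carried no gene name column and name build mm8, so their coordinates are not given. The promoter coordinates printed above are those of GRCm38.p6. The brightest probe stood for a gene. Of the 38 genes, 32 had 1 probe and 6 had 2, each printed as 1 spot. A gene was higher or lower from 2-fold. For bounds, a dim spot was raised to the lowest signal that passed background on its array where it lay under that, and a saturated spot (65525 pixel units) stood at its value. Spot error is the scanner's and covers no animals, and the number of arrays limits the precision. No p-value is given.

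Members and companion lists were chosen with earlier results of these data known. Every gene of the family on the array is accounted for, those past 2-fold with their levels, and up to 3 genes per companion list and comparison by size. Values of Pglyrp3 and Elf3 in the back and of S100a7a in the tail were added after they were seen. Alternatives were normexp (limma 3.58.1 in R 4.3.3, offset 50, on the median spot signal, since the planned mean signal was not among the columns), median pixel minus local background, quantile, cyclic loess, median centring, spike-in scaling, probe choice, outlier spots kept, measured genes only, no filter, the deposited table and a 3-fold threshold. The calling steps were tested on simulated data.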

Additional observations from a re-analysis of the deposited data

Results flagged for a closer look

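Casp14 lay on opposite sides of its control at the 2 sites, at 1.34 in the tail and at a bound of -3.01 in the back on the scaled log2 scale. Each site has 1 treated and 1 control array, and the difference between the sites was not tested. The tail value was 0.52 under cyclic loess and -0.72 with spike-in scaling, where both sites lie on the same side, and the back bound kept its sign under every alternative with a value.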

How the results depend on the processing

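No paired analysis was possible because each group is 1 array and the labels give no shared replicate numbers, and for the same reason no array could be left out. In the tail the 3 higher genes became 1 under normexp, 1 under cyclic loess, 1 at 3-fold, 0 with spike-in scaling and 30 with no filter on saturation or background, and the 1 lower gene became 3 under quantile, 2 under cyclic loess, 8 with spike-in scaling and 0 among measured genes only. In the back the 1 higher gene, Sprr3, became 0 under normexp, median pixel minus local background, cyclic loess, spike-in scaling, measured genes only and 3-fold, while the 8 lower genes became 4 among measured genes only, where bounds are left out by construction, and all 8 stayed at least 2-fold lower under every other alternative with a 2-fold threshold in which they had a value. Between untreated skins the 5 higher genes became 3 among measured genes only and 35 with no filter, and the 1 lower gene 2 under quantile and 0 among measured genes only. In the treated pair the 4 higher genes became 7 with spike-in scaling, 2 among measured genes only and 2 at 3-fold. Apart from the exclusion of bounds and of the filter, the cause was not tested. The median of all genes moved by over 0.1 under normexp (0.29 in the tail, 0.14 in the back, 0.15 untreated, -0.39 treated pair), quantile (-0.31 tail, -0.30 untreated, 0.13 treated pair), cyclic loess (-0.41 tail, -0.31 untreated, 0.12 treated pair), no filter (0.24, 0.11 and 0.29 in the first 3 pairs) and spike-in scaling (-1.95, -0.46, -0.76 and 0.80). Higher genes made up 80.6% of tail calls over all genes, against 91.5% under normexp, 57.8% under quantile, 54.0% under cyclic loess and 1.31% with spike-in scaling. In the back this share was 51.8%, and 19.8% with spike-in scaling. Spike-in levels relative to tail control were -0.94, -1.16 and -1.31 on the tail treated, back control and back treated arrays. Spike-in values of single genes, the count without the saturation filter alone, and treating spots near the scanner limit as saturated were added after seeing the data, and the last moved no count of the family by over 1.5 times. Saturation, not dimness, limited the family, since Sprr3 alone was near background.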
